A study of Mus musculus with 9 samples.

Results

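The time course of intestinal epithelial cells (IECs) after NKT cell activation was read here between its 2 treated time points, 72 h against 18 h after injection of α-galactosylceramide (αGalCer). The members of this comparison were the 3 libraries that the labels place at 72 h (72h-αGal) and the 3 that they place at 18 h (18h-αGal), 6 of the 9 libraries of the series, and every gene of the count table entered it. All mice were female, wild type (WT) and of the C57BL/6J strain, and each library came from 1 mouse, whose age the labels do not give. The treated mice received 2 µg of αGalCer by the intraperitoneal route, and the 3 control mice received PBS and were labelled 18 h. From the proximal small intestine of each mouse, crypt cells were digested and live EpCAM+ cells without CD45, CD31 or Ter119 on their surface were sorted into lysis buffer. Different mice were killed at each time, so no mouse was followed from 18 h to 72 h. No PBS mice stand beside the 72 h group at its own time, and an effect of time since injection therefore cannot be told apart from an effect of the day or hour of sampling.

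NKT cells are T lymphocytes that recognise lipids held by CD1d, and αGalCer is the standard lipid used to activate them. Within hours of activation they release IFN-γ and IL-4. IFN-γ binds its receptor on epithelial cells and, through the kinases JAK1 and JAK2, turns on genes for antigen presentation, for GTPases that attack intracellular microbes and for chemokines. The crypt is the part of the epithelium where stem cells divide, and its progeny become absorptive enterocytes or the secretory Paneth, goblet, tuft and enteroendocrine cells within days. A comparison of 72 h with 18 h therefore asks which transcripts of the early response had left the crypt epithelium and which had come back.

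Total counts ranged from 14951274 to 30802477 at 18 h, from 16283386 to 24255415 at 72 h and from 8887861 to 32722293 in controls. The epithelial markers Epcam, Cdh1, Krt8 and 10 others summed to between 7118 and 7613 CPM (counts scaled to a common library total) at 18 h and between 6225 and 7468 CPM at 72 h, whereas T and NK cell markers summed to between 6.22 and 19.3 CPM in these 6 libraries, with Cd4 and Ncr1 at 0 counts in each. Control replicate 3, the library with the lowest total, lay apart from the other 8 on the second principal component (-46.2 against 0.01 to 14.6). The controls share the estimate of the spread with the treated groups, so counts of called genes are also given without this library where they moved by more than 1.5 times. In bulk RNA from a sorted population, a lower share of a cell type and less RNA of a gene per cell cannot be told apart.

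Of 18933 genes with enough counts to be tested, 1936 (10.2%) passed the threshold of 0.05 on the adjusted p (quasi-likelihood F test in edgeR, Benjamini-Hochberg over all tested genes) and are referred to as called. Of these, 792 (4.18%) were higher and 1144 (6.04%) were lower at 72 h than at 18 h. Both shares stand behind every count of called genes given for a list in this comparison. The 3 mice of one group lay wholly above or below the 3 of the other for 6215 genes (32.8%), and for 1931 of the 1936 called genes. By unadjusted p under 0.05 the counts were 4593 genes (24.3%), of which 2167 (11.4%) were higher and 2426 (12.8%) lower, and these shares stand behind every count by unadjusted p given for a list. The median log2 fold change was -0.72 among the genes called lower and 0.94 among those called higher, and 315 of the former against 367 of the latter differed at least 2-fold between the groups. Against control, 5 genes (0.0264%) were called at 72 h, and these were Tph1, Tac1, Neurod1, Chgb and Chga, genes of enteroendocrine cells. That count was 0 without control replicate 1, 72h-αGal replicate 1 or 72h-αGal replicate 3, 1 without control replicate 2, 2 without 72h-αGal replicate 2, 8 without 18h-αGal replicate 3 and 20 without control replicate 3, and 1125 genes (5.94%) had an unadjusted p under 0.05 against control. Over all tested genes, the 72 h mean lay below the 3 controls for 3333 (17.6%), above them for 3677 (19.4%) and inside their range for 11923. The 72 h mean lay inside the range of the 3 controls for 550 of the 1144 genes called lower, below it for 541 and above it for 53. Among the 792 genes called higher it lay inside for 397, above for 332 and below for 63. The calls used the same 72 h values, and this alone favours low 72 h means among genes called lower and high ones among genes called higher. These counts therefore cannot tell whether genes passed beyond the level of the controls. The range also includes control replicate 3, and no such count was made without it.

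**Figure D1:**
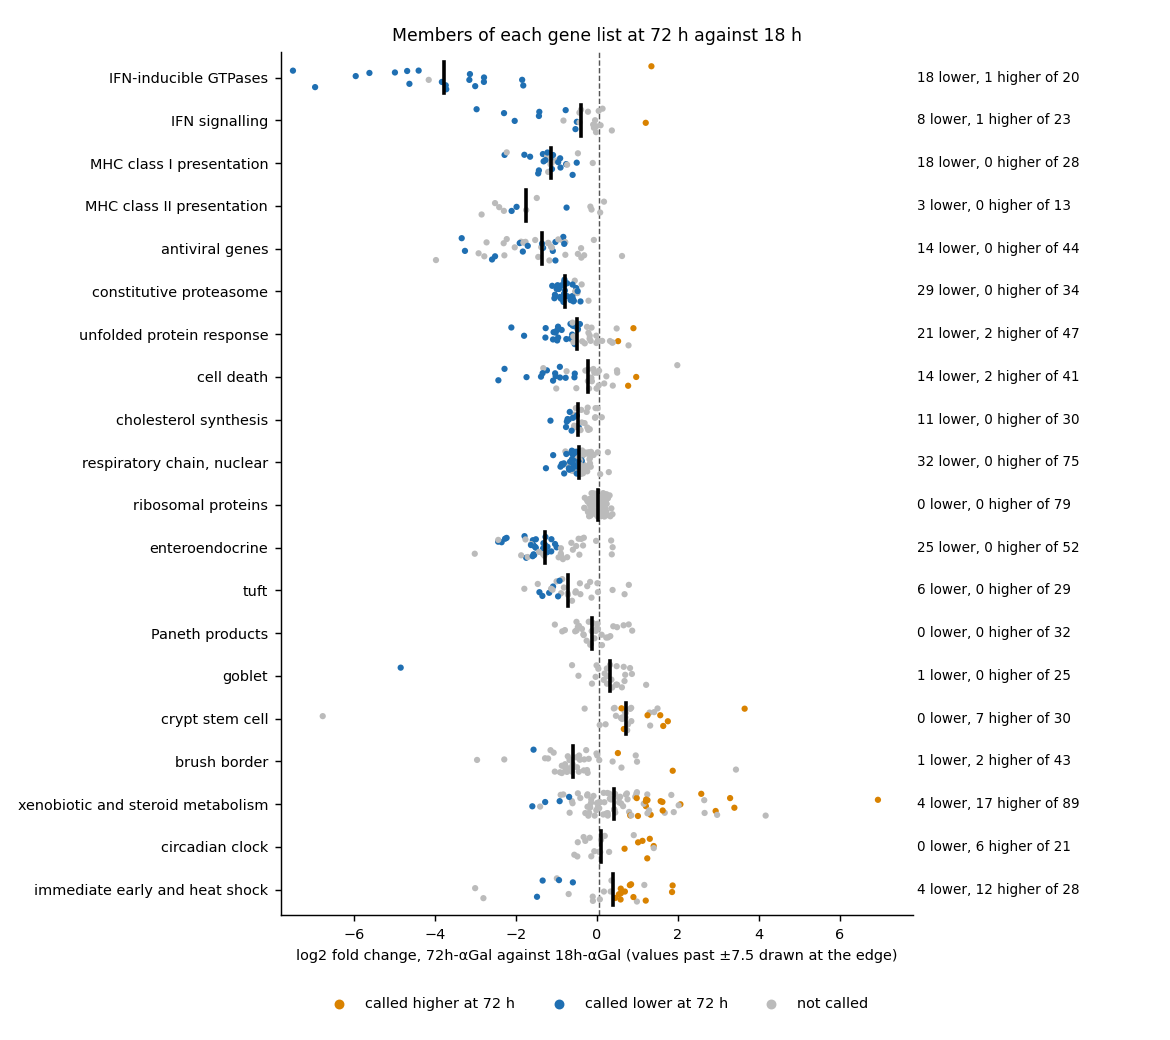
Each point is a gene of a list, placed by its log2 fold change at 72 h against 18 h (3 mice a group), in blue where called lower, orange where called higher and grey where not called. The black bar is the median of the list and the dashed line the median of all genes tested (0.05). The IFN-inducible GTPases lie farthest to the left with a median of -3.77, the proteasome genes form a narrow cluster around -0.79, and stem cell genes lie mostly to the right with a median of 0.71.

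The list with the lowest median was that of the IFN-inducible GTPases, the guanylate-binding proteins (Gbp) and immunity-related GTPases (Irg) that assemble on the vacuoles of intracellular microbes. Of 20 tested, 18 fell from 18 h to 72 h and 1 rose, against 6.04% and 4.18% of all genes, and the median log2 fold change was -3.77 against 0.05 over all genes. Summed over the list, their level was 1471 to 1859 CPM at 18 h, 139 to 156 CPM at 72 h and 125 to 243 CPM in controls. The 18 were Iigp1, Irgm1, Irgm2, Igtp, Tgtp1, Tgtp2, Ifi47, F830016B08Rik, Gm12250, and each gene from Gbp2 to Gbp10. Without 72h-αGal replicate 2 the count of GTPases called lower was 11.

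Gbp2 (ENSMUSG00000028270, chromosome 3) had 1099.6, 1246 and 695 normalised counts in the 3 mice at 18 h and 31.3, 24.2 and 8.83 in the 3 at 72 h. Its controls had 21.1, 62.6 and 52.3, so the 72 h mice lay within or below the range of the PBS mice, and the 18 h mice lay far above both groups. The log2 fold change from 18 h to 72 h was -5.61 ± 0.50 (estimate ± SE, edgeR adjusted p of 9.73e-05), and values after ± are SE throughout. Gbp7 (ENSMUSG00000040253, chromosome 3) started from a higher base, with 142, 155 and 338 normalised counts in controls, 1468, 1646 and 1276 at 18 h and 214, 204 and 216 at 72 h. The log2 fold change of Gbp7 was -2.79 ± 0.27 (edgeR adjusted p of 5.93e-05). Its 72 h mice differed from each other by less than its controls did.

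Irgm1 (ENSMUSG00000046879, chromosome 11), a regulator of the other immunity-related GTPases, had 6623, 7967 and 6856 normalised counts at 18 h, 1036, 935 and 701 at 72 h and 1038, 1001 and 1740.2 in controls. The log2 fold change of Irgm1 was -3.0 ± 0.21 (edgeR adjusted p of 2.69e-05), and its 72 h mice lay within or below the range of the controls. Ifi47 (ENSMUSG00000078920, chromosome 11) had the lowest p of all genes tested, with 1809, 1909.8 and 1625 normalised counts at 18 h and 259, 277 and 237 at 72 h, a log2 fold change of -2.78 ± 0.21 (edgeR adjusted p of 1.96e-05). The groups of Ifi47 did not overlap, and the controls had 308, 206 and 402. Tgtp1 (ENSMUSG00000078922, chromosome 11) had 492, 530.0 and 262 normalised counts at 18 h and 4.63, 1.01 and 13.2 at 72 h, a log2 fold change of -5.95 ± 0.63 (edgeR adjusted p of 0.000133). Tgtp1 is nearly identical to Tgtp2 and overlaps Gm12185, so the split of reads among these genes is uncertain. F830016B08Rik was at 0 counts in all 3 mice at 72 h and at 197, 405 and 219 normalised counts at 18 h, which is at least 78.8-fold lower if each 72 h library is set to a floor of 3 counts. With this gene at its bound the median of the list stays at -3.77.

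Iigp1 (ENSMUSG00000054072, chromosome 18), which attacks parasite vacuoles, had 3795, 4045 and 1876 normalised counts at 18 h, 37.1, 8.07 and 32.4 at 72 h and 37.6, 12.3 and 52.3 in controls, a log2 fold change of -6.95 ± 0.65 (edgeR adjusted p of 0.00132). Its groups were far apart although its 18 h mice varied widely. Igtp and Gbp3, both among the 10 largest falls, had log2 fold changes of -4.98 ± 0.78 and -4.68 (edgeR adjusted p of 0.0125 and 0.0222). The call of Igtp was lost without any one of the 72 h replicates and that of Gbp3 without any one of the 6 treated libraries, although the replicates of the groups did not overlap for either gene. Gvin1, a very large GTPase gene, went the other way, with 194, 158 and 119 normalised counts at 18 h, 416, 319.7 and 466 at 72 h and 335, 314 and 207 in controls, a log2 fold change of 1.35 ± 0.27 (edgeR adjusted p of 0.00554). Every 72 h mouse was above every 18 h mouse for Gvin1.

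The upstream sequences of these genes are shown because IFN-γ and type I interferons act through short elements next to the transcription start. RefSeq promoters of the GRCm38.p6 build, from 250 bases before the start to 50 after it, were available here for 11 of the 20 tested GTPases and 11645 of all tested genes. The interferon-stimulated response element (ISRE), searched on both strands as GAAA and GAAA with 2 free bases between, was present in 10 of the 11 and in 3.62% of the promoters of all tested genes. The gamma-activated sequence (GAS), searched as TTCNNNGAA on both strands, was present in 7 of the 11 and in 8.25% of all. Of the genes called lower, 7.69% of 884 promoters held an ISRE and 8.71% a GAS, and of the genes called higher, 2.62% of 534 held an ISRE and 11.1% a GAS. Either motif may overlap the other. Capitals mark ISRE or GAS matches in 4 promoters, printed 5′ to 3′ on the strand of the gene.

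Gbp2, chr3:142620413-142620712, plus strand: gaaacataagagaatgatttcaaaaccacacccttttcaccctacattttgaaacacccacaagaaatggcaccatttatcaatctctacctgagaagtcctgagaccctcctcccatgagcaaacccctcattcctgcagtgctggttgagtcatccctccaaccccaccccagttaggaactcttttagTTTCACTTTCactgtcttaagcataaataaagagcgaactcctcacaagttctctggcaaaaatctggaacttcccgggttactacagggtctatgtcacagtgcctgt
Gbp7, chr3:142530086-142530385, plus strand: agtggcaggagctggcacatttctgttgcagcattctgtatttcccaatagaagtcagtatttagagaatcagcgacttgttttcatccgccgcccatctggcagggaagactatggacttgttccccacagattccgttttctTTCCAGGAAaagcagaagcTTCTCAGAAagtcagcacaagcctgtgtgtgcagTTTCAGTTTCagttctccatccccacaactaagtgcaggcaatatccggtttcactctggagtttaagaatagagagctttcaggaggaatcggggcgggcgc
Irgm1, chr11:48871371-48871670, minus strand: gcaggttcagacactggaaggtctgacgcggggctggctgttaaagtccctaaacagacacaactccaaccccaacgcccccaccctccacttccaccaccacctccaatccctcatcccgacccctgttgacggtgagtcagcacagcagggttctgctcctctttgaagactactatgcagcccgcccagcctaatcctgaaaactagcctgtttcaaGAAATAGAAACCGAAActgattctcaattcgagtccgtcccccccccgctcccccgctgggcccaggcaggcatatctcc
Bst2, chr8:71537423-71537722, minus strand: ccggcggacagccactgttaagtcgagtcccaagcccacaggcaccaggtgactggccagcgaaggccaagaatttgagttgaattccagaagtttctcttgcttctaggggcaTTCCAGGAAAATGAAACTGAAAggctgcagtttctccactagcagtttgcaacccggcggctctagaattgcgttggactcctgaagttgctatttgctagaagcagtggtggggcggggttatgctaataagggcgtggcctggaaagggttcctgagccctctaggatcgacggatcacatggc

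Counted from the base before the start as -1, the ISRE of Gbp2 covers -59 to -50 and that of Gbp7 covers -53 to -44. Gbp7 also holds GAS matches from -106 to -98 and from -87 to -79, while Gbp2 holds none in this window. Irgm1 has 2 overlapping ISRE matches from -30 to -21 and from -24 to -15, close to its start. Bst2, a restriction factor of the antiviral group described next, has overlapping ISRE matches from -130 to -121 and from -124 to -115, and a GAS match from -136 to -128 that runs into the first of them. A match is a sequence of letters and does not show that a factor was bound in these cells.

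The receptor chain gene Ifngr1 did not pass, with 3536, 3572 and 3839 normalised counts at 18 h and 4296, 3907 and 3831 at 72 h and a log2 fold change of 0.14 ± 0.11 (edgeR adjusted p of 0.454). Of the 23 genes of signalling and feedback tested, 8 fell, among them Stat2, Stat3, Jak2, Irf1, Irf8, Socs1 and Usp18, and 1 rose, namely Socs3. The count of 8 was 5 without any one of 18h-αGal replicates 1 or 3 or of the 3 72h-αGal replicates. Jak2, the kinase of the IFN-γ receptor, had 2458, 2255 and 2900.3 normalised counts at 18 h, 1921, 1907 and 1563 at 72 h and 2165, 1840.5 and 2434 in controls, a log2 fold change of -0.49 ± 0.14 (edgeR adjusted p of 0.032). The call of Jak2 was lost without control replicate 1, 18h-αGal replicate 1 or 3 or any 72h-αGal replicate. The feedback inhibitor genes Socs1 and Socs3 moved in opposite directions. Socs1, the inhibitor of JAK1 and JAK2, had a log2 fold change of -1.43 ± 0.22 (edgeR adjusted p of 0.00133), while Socs3, which restrains STAT3 signalling, had 1.21 ± 0.25 (edgeR adjusted p of 0.00849). Usp18, which blocks type I interferon receptor signalling, fell by 2.97 on the log2 scale, from 310.2, 371 and 505 to 46.3, 79.7 and 25.8 normalised counts (edgeR adjusted p of 0.00797).

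**Figure D2:**
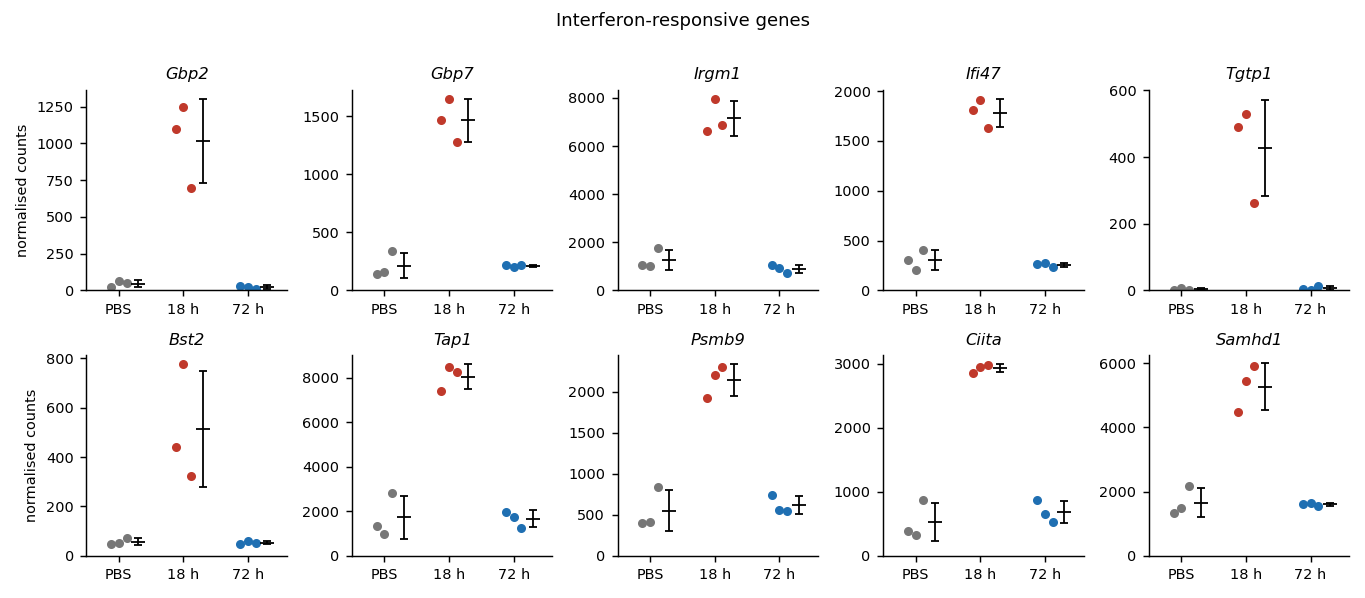
Normalised counts (y axis, linear from 0) of 10 interferon-responsive genes in each mouse of the control (PBS), 18 h and 72 h groups. Each point is a mouse, and the bar beside the points gives the mean and SD of 3. In each panel the 3 mice at 18 h lie above all 6 others.

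The class I pathway, which cuts proteins and loads their peptides for CD8+ T cells, had 28 tested genes. Each of these had a log2 fold change below 0, and 18 were called lower and 0 higher, with a median of -1.13. By unadjusted p under 0.05, 24 were lower and 0 higher, and DESeq2 and limma-voom called 21 and 23 lower and 0 higher. Without 72h-αGal replicate 3 the count was 11, and without control replicate 3 it was 24. The summed level of the list was 8303 to 8765 CPM at 18 h, 3654 to 4465 at 72 h and 3629 to 5314 in controls. The genes called lower were the immunoproteasome subunits Psmb8, Psmb9 and Psmb10 with their activators Psme1 and Psme2, the transporter genes Tap1 and Tap2, the loading factors Tapbp, Tapbpl, Calr, Canx and Pdia3, the trimming peptidase Erap1, and B2m with H2-K1, H2-D1, H2-Q4 and H2-T23.

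Psmb9 (ENSMUSG00000096727, chromosome 17) had 1917, 2208 and 2299 normalised counts at 18 h, 745, 559.7 and 549.7 at 72 h and 399, 416 and 834 in controls, a log2 fold change of -1.79 ± 0.24 (edgeR adjusted p of 0.00114). Tap1 (ENSMUSG00000037321, chromosome 17), on the opposite strand next to Psmb9, had 7422, 8473 and 8258 at 18 h and 1975, 1756 and 1242 at 72 h, a log2 fold change of -2.27 ± 0.38 (edgeR adjusted p of 0.0106). The exons of the pair overlap, and the strand setting of the counting was not given in the sources used here, so reads of such a pair cannot be told apart. The same holds for Ciita with Dexi, Il18bp with Numa1, Nr1d1 with Thra and G6pdx with Ikbkg. The call of Tap1 was lost without 72h-αGal replicate 3. Calr, a chaperone that serves both class I loading and general protein folding, had 27205, 27979 and 28287 normalised counts at 18 h and 12667, 12108 and 9756 at 72 h, a log2 fold change of -1.27 ± 0.12 (edgeR adjusted p of 5.59e-05).

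Of 13 genes of class II presentation tested, 11 were below 0 and the median was -1.74, yet 3 were called lower (Ciita, H2-DMa and Ctss) and 0 higher. At an unadjusted p under 0.05, 8 were lower and 0 higher, and DESeq2 and limma-voom called 6 and 7 lower. The count of 3 became 8 without control replicate 3 and 1 without any one of the treated libraries. Ciita (ENSMUSG00000022504, chromosome 16), the master regulator of class II genes, had 2861, 2950.0 and 2982 normalised counts at 18 h, 864, 649.5 and 531 at 72 h and 384, 319.9 and 865 in controls, a log2 fold change of -2.10 ± 0.34 (edgeR adjusted p of 0.00671). The 72 h mice of Ciita were all above the first 2 controls and below control replicate 3. H2-Ab1, a class II chain, was not called (log2 fold change -2.29 ± 0.65, edgeR adjusted p of 0.081), with 7140.1, 6833 and 8153 normalised counts at 18 h, 1996, 1363 and 1144 at 72 h and 460.5, 435 and 2052 in controls. Control replicate 3 carried over 4 times the H2-Ab1 of the other controls, and this gene was chosen after its values were seen.

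Antiviral genes, most of them shared targets of type I and type II interferon, were below 0 for 43 of 44, with a median of -1.36. Of the 44, 14 were called lower and 0 higher, 31 were lower and 0 higher at an unadjusted p under 0.05, and DESeq2 and limma-voom called 26 and 30 lower and 0 higher. The count was 33 without control replicate 3, 34 in a fit of the 6 treated libraries alone, and 9 without 72h-αGal replicate 1 or 3. Bst2 (ENSMUSG00000046718, chromosome 8), which tethers budding viruses to the cell, had 441, 775 and 323 normalised counts at 18 h, 48.7, 60.5 and 51.5 at 72 h and 46.99, 51.3 and 73.7 in controls, a log2 fold change of -3.25 ± 0.34 (edgeR adjusted p of 7.99e-05). Samhd1, which depletes deoxynucleotides, had 4462, 5430.1 and 5901 at 18 h and 1611, 1655 and 1557 at 72 h, a log2 fold change of -1.70 ± 0.16 (edgeR adjusted p of 5.59e-05). The RNA sensor kinase gene Eif2ak2 had 1992, 1988 and 1963 at 18 h and 893, 980.3 and 917 at 72 h, a log2 fold change of -1.08 ± 0.16 (edgeR adjusted p of 0.0011). In the promoters, 15 of 32 antiviral genes with an entry held an ISRE and 8 held a GAS, against 3.62% and 8.25% of all tested genes.

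Chemokines, cytokines and ligands that act on lymphocytes changed in both directions. Of 27 tested, Cxcl9, Il18bp, Cd274 and Tnfsf10 were called lower, and Cxcl16, Ccl20 and Ccl28 were called higher. The count called lower was 8 without control replicate 3. Cxcl9 (ENSMUSG00000029417, chromosome 5), the chemokine that draws CXCR3+ T cells, had 83.9, 155 and 129.7 normalised counts at 18 h and 16.2, 4.03 and 13.2 at 72 h, and controls had 0, 5.70 and 0. Its log2 fold change was -3.43 ± 0.78 (edgeR adjusted p of 0.0121), and the call was lost without 18h-αGal replicate 2 or 72h-αGal replicate 3. Il18bp, the soluble inhibitor of IL-18, had 1838, 2822 and 2493 at 18 h, 401, 373 and 434 at 72 h and 321, 322 and 659 in controls, a log2 fold change of -2.56 ± 0.26 (edgeR adjusted p of 0.000162). Ccl28, an epithelial chemokine that recruits IgA-secreting cells, moved upward from 1263, 953 and 821 to 1953, 1680.2 and 2391 normalised counts, with 1807, 2244 and 1897 in controls, a log2 fold change of 0.99 ± 0.17 (edgeR adjusted p of 0.00293). Cxcl16, the ligand of CXCR6, had a log2 fold change of 1.06 ± 0.20 (edgeR adjusted p of 0.00498), with all 72 h mice above all 18 h mice.

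Of 24 inducible antimicrobial and complement genes, 5 were called lower (C3, C4b, Serping1, Reg4 and Retnlb) and 1 higher (Pigr). The Pigr call was lost without 18h-αGal replicate 1 or 2 or 72h-αGal replicate 1 or 2, and the higher count was 3 without control replicate 3. C3 (ENSMUSG00000024164, chromosome 17) had 712, 805 and 647 normalised counts at 18 h, 97.3, 102 and 62.5 at 72 h and 27.6, 57.9 and 66.6 in controls, a log2 fold change of -3.05 ± 0.31 (edgeR adjusted p of 5.93e-05). At 72 h, 2 of the 3 mice were above all 3 controls for C3. Serping1, the C1 inhibitor gene, had 300.1, 409 and 309 at 18 h, 18.5, 4.03 and 22.1 at 72 h and 5.87, 10.4 and 9.51 in controls, a log2 fold change of -4.47 ± 0.48 (edgeR adjusted p of 9.08e-05). C4b had a log2 fold change of -4.96 ± 0.76 (edgeR adjusted p of 0.00532). Ly6a, which encodes the surface protein Sca-1, had 1351, 2518 and 1453 at 18 h, 37.1, 44.4 and 7.36 at 72 h and 9.40, 36.1 and 116 in controls, a log2 fold change of -5.96 ± 0.96 (edgeR adjusted p of 0.0126), a call lost without 72h-αGal replicate 1. Wars1, the tryptophanyl-tRNA synthetase gene and a known interferon target, was the 1 gene called of 8 in tryptophan metabolism, with 9164, 9534 and 6112 at 18 h and 2862, 2268 and 2598 at 72 h and a log2 fold change of -1.68 ± 0.16 (edgeR adjusted p of 5.89e-05).

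Outside the lists, the lowest p-values belonged to Nampt, Oat and Nudt5, which were chosen after their values were seen. Nampt (ENSMUSG00000020572, chromosome 12), the rate-limiting enzyme of NAD salvage, had 3185, 3143 and 3146 normalised counts at 18 h, 912, 988 and 821 at 72 h and 1239, 868 and 1182 in controls, a log2 fold change of -1.79 ± 0.14 (edgeR adjusted p of 2.08e-05). The 3 mice at 18 h were close to each other and the groups did not overlap. Nudt5, an ADP-sugar hydrolase, had 3439.5, 3621 and 4099 at 18 h and 792, 940.0 and 737 at 72 h, a log2 fold change of -2.17 ± 0.19 (edgeR adjusted p of 3.76e-05), and its exons overlap those of Cdc123 on the opposite strand. Oat, ornithine aminotransferase, went upward from 6414, 5741 and 5378 at 18 h to 14639, 15375 and 14328 at 72 h, a log2 fold change of 1.34 ± 0.11 (edgeR adjusted p of 2.24e-05). Its controls had 19375, 19564 and 17372, so that the 72 h mice lay between both other groups and overlapped neither.

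Of 41 cell death genes tested, 14 were called lower and 2 higher, against 6.04% and 4.18% of all genes, and 25 were not called, with a median of -0.21, and the count of 14 was 9 without 18h-αGal replicate 2 and 8 without 72h-αGal replicate 3. Bak1 (ENSMUSG00000057789, chromosome 17), which opens the outer mitochondrial membrane, had 2547, 2234 and 2521 normalised counts at 18 h, 1411, 1254 and 787 at 72 h and 1526, 1102 and 1422 in controls, and its 18 h mice were above all 6 others. Others called lower were the death receptor genes Fas and Tnfrsf1a, the caspase genes Casp1 and Casp8, the pore-forming Bax with Cycs, Bcl2l15, the necroptosis genes Ripk3 and Mlkl, and the gasdermin genes Gsdmc2 and Gsdmc4. The call of Fas, whose adjusted p was 0.0415 in edgeR, was lost without control replicate 1, any 18h-αGal replicate or 72h-αGal replicate 1 or 3. Leaving out a library also ended the calls of Casp1, Bcl2l15, Bax, Tnfrsf1a and Mlkl. Casp1 lost its call without 18h-αGal replicate 2 or 3 or 72h-αGal replicate 1 or 3, Bcl2l15 without any 18h-αGal replicate or 72h-αGal replicate 1 or 3, and Bax without control replicate 1 or 2, 18h-αGal replicate 2 or any 72h-αGal replicate. Tnfrsf1a lost it without 18h-αGal replicate 2 or 72h-αGal replicate 3, and Mlkl without replicate 3 of either treated group. Bak1, Cycs and Ripk3 had log2 fold changes of -1.08 ± 0.19, -1.34 ± 0.16 and -0.91 ± 0.14 (edgeR adjusted p of 0.00274, 0.000182 and 0.00164). Casp4 and Bcl2l11 were called higher, with log2 fold changes of 0.98 and 0.78, the former not without 18h-αGal replicate 2 or 3 or any 72h-αGal replicate. Of 25 p53 targets, 5 were called lower and 1 higher, and Cdkn1a, the cell cycle inhibitor p21, had 2155, 2379 and 3236 normalised counts at 18 h and 1165, 1322 and 974 at 72 h, a log2 fold change of -1.16 ± 0.19 (edgeR adjusted p of 0.00214). The p53 count of 5 was between 2 and 3 without control replicate 1, 18h-αGal replicate 1 or 2, or any of the 72h-αGal replicates.

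The constitutive proteasome, the complex that degrades ubiquitinated proteins in every cell, was lower at 72 h in nearly every subunit. Its 34 genes were all below 0, 29 were called lower and 0 higher, 32 were lower at an unadjusted p under 0.05, and 32 had no overlap between the groups, where 32.8% of all genes had none in either direction. DESeq2 and limma-voom called 29 and 32 lower and 0 higher. The median was -0.79 and the median against control was -0.03. The genes called lower covered the core (each gene from Psma1 to Psma7 and 5 Psmb genes), the ATPase ring (each gene from Psmc1 to Psmc6), 10 Psmd genes of the lid and base and the assembly factor gene Pomp. Psma1 (ENSMUSG00000030751, chromosome 7) had 3303, 3719.8 and 3521 normalised counts at 18 h, 1849.9, 1505 and 1545 at 72 h and 1716, 1694 and 2011 in controls, a log2 fold change of -1.10 ± 0.12 (edgeR adjusted p of 0.000104). Psmd3, a subunit of the lid, had 3497, 3629 and 3433 at 18 h and 2107, 2047 and 1947 at 72 h, a log2 fold change of -0.78 ± 0.10 (edgeR adjusted p of 0.000382). The gap between the groups of Psmd3 was wider than the spread within either.

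In the unfolded protein response list, 21 of 47 genes were called lower and 2 higher, with a median of -0.48. Sdf2l1 (ENSMUSG00000022769, chromosome 16), a chaperone cofactor, had 692, 589 and 640.2 normalised counts at 18 h, 142, 179 and 124 at 72 h and 229.6, 171 and 285 in controls, a log2 fold change of -2.11 ± 0.23 (edgeR adjusted p of 0.000116). Creld2 had 940.1, 862 and 982 at 18 h and 256, 245 and 297 at 72 h, a log2 fold change of -1.79 ± 0.18 (edgeR adjusted p of 5.93e-05). The chaperone and disulfide isomerase genes Hspa5, Hsp90b1, Pdia4, Pdia6, Dnajb11, Dnajc3, Manf and Hyou1 were all called lower, from -1.26 for Dnajb11 to -0.75 for Dnajc3, as were the translocon and signal peptidase genes Sec61a1, Ssr2, Ssr3, Spcs1, Spcs2 and Spcs3, from -0.65 for Spcs1 to -0.41 for Sec61a1. The stress-induced Atf3 and Ppp1r15a, which act in the branch that slows translation, were the genes called higher, at 0.91 and 0.53, the latter not without 18h-αGal replicate 1 or 2 or 72h-αGal replicate 1 or 3. In promoters, the endoplasmic reticulum stress element (ERSE), searched on both strands as CCAAT and CCACG with 9 free bases between, was present in 10 of 39 genes of this list with an entry (Calr, Canx, Creld2, Derl3, Dnajc3, Ero1b, Hsp90b1, Hspa5, Pdia6 and Syvn1). All tested genes together held it in 22 of 11645 promoters (0.189%).

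Cholesterol synthesis genes, the targets of SREBP2, were below 0 for 28 of 30, and 11 were called lower and 0 higher, with a median of -0.47. At an unadjusted p under 0.05, 17 were lower and 0 higher, and DESeq2 and limma-voom called 11 and 15 lower. The called genes included Hmgcs1, Sqle, Msmo1, Sc5d, Ebp and Dhcr7 of the synthesis pathway, with Insig1, the sterol sensor partner. Sqle, the squalene epoxidase gene, had 2320.3, 2167 and 2188 normalised counts at 18 h, 1563, 1359.5 and 1068 at 72 h and 1222, 1268 and 1136 in controls, a log2 fold change of -0.74 ± 0.14 (edgeR adjusted p of 0.00405). Without 18h-αGal replicate 1 or 2, or 72h-αGal replicate 3, the count was 6, 7 and 4. Of 27 genes of the oxidative stress response, 7 were called lower, among them Gsr, G6pdx and Pgd, which supply reduced glutathione and NADPH, with log2 fold changes of -0.81 ± 0.13, -0.72 ± 0.12 and -0.85 ± 0.15 (edgeR adjusted p of 0.00165, 0.00181 and 0.00317). In that list 1 gene was called higher without control replicate 3 or without 18h-αGal replicate 3. The oxidative stress count was 4 without 18h-αGal replicate 3 or 72h-αGal replicate 3.

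Of 75 respiratory chain subunits encoded in the nucleus, 71 were below 0, and 32 were called lower (51 at an unadjusted p under 0.05, where 12.8% of all genes were lower, 33 by DESeq2 and 36 by limma-voom), with a median of -0.44. Against control, 0 of the 75 were called, 14 had an unadjusted p under 0.05 (5.94% of all genes) and the median was -0.19. Their 72 h mean lay below all 3 controls for 36, inside their range for 35 and above it for 4. Of 15 genes encoded by mitochondrial DNA, all 15 were above 0, with a median of 0.32. At an unadjusted p under 0.05, 4 of them were higher and 0 lower, against 11.4% and 12.8% of all genes. Called higher were 2 that overlap on opposite strands, mt-Nd5 and mt-Nd6. The nuclear count was 20 without control replicate 1, 18h-αGal replicate 1 or 72h-αGal replicate 1, 13 without 18h-αGal replicate 2 or 3 or 72h-αGal replicate 2, and 7 without 72h-αGal replicate 3. The mitochondrial count was 0 without 18h-αGal replicate 2 or 72h-αGal replicate 2 and 1 without 72h-αGal replicate 3. Uqcrb, a subunit of complex III, had 1806, 2066 and 2381 normalised counts at 18 h and 1254, 1064 and 1025 at 72 h, a log2 fold change of -0.89 ± 0.14 (edgeR adjusted p of 0.0017), and mt-Nd5, a subunit of complex I, had 0.54 ± 0.14 (edgeR adjusted p of 0.0234). Mitochondrial genes took between 7.95% and 9.35% of all counts at 18 h and between 10.3% and 11.7% at 72 h, and their part in other results was not tested. Of 79 cytosolic ribosomal protein genes, 0 were called by edgeR, DESeq2 or limma-voom, with 5 higher and 3 lower at an unadjusted p under 0.05 and a median of 0.04. Without control replicate 3, 1 ribosomal protein gene was called higher. Of 47 genes of ribosome biogenesis, 3 (6.38%) were called lower (Bop1, Pa2g4 and Odc1), a share near the 6.04% of all genes. The ribosome biogenesis count was 0 without 18h-αGal replicate 1 or 2 or any 72h-αGal replicate and 6 without 18h-αGal replicate 3.

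Genes of enteroendocrine cells, the hormone-secreting cells of the epithelium, were tested for 52 genes. Of these, 25 were called lower and 0 higher at 72 h than at 18 h, with a median of -1.28, and 38 were lower and 0 higher at an unadjusted p under 0.05, against 12.8% and 11.4% of all genes. DESeq2 and limma-voom called 30 and 25 lower and 0 higher. Against control, 5 were called, 28 had an unadjusted p under 0.05 (5.94% of all genes) and the median was -0.86. The 72 h mean lay below all 3 controls for 37 of the 52, against 17.6% of all genes. Such a position was not particular to this list. It also held for 36 of 75 nuclear respiratory chain genes, 20 of 37 of fatty acid oxidation and 19 of 38 of dietary fat. The same was true of 18 of 43 brush border genes and 39 of 89 genes of steroid and foreign compound metabolism. The 5 calls against control were all lost without control replicate 1, 72h-αGal replicate 1 or 72h-αGal replicate 3, and with the replicate block 1 gene in all was called against control. Summed, the list took 1484 to 2177 CPM at 18 h, 776 to 855 at 72 h and 1205 to 1397 in controls, so the 72 h mice overlapped neither group.

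**Figure D3:**
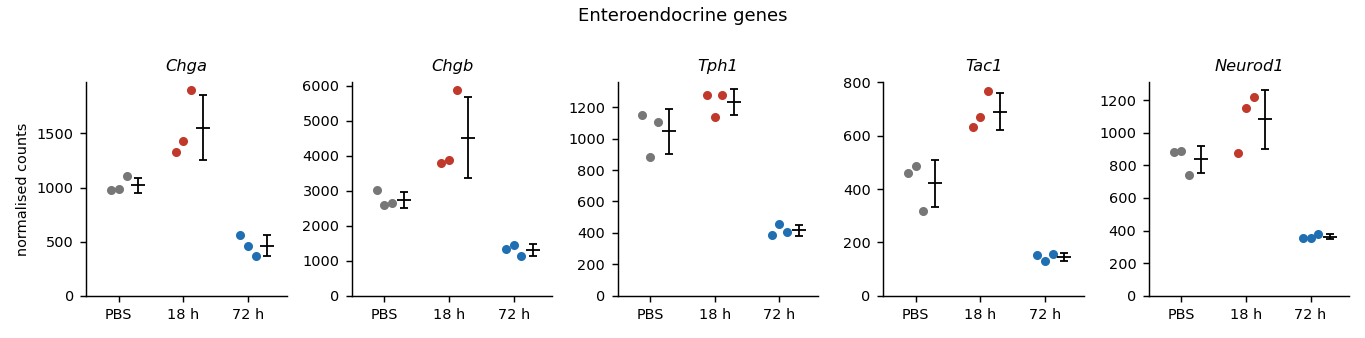
Normalised counts (y axis, linear from 0) of Chga, Chgb, Tph1, Tac1 and Neurod1 in each control (PBS), 18 h and 72 h mouse. Points are mice and the bar beside them is the mean and SD of 3. The 72 h mice are the lowest 3 of 9 in each panel.

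Enterochromaffin cells, which make serotonin and the tachykinin substance P, express the next 3 genes. Tph1 (ENSMUSG00000040046, chromosome 7), the enzyme that starts serotonin synthesis, had 1276, 1135 and 1280.4 normalised counts at 18 h, 387, 454 and 406 at 72 h and 1151, 885 and 1103 in controls. The log2 fold change of Tph1 against 18 h was -1.56 ± 0.15 (edgeR adjusted p of 5.59e-05), and every 72 h mouse was below all 6 others. Tac1 (ENSMUSG00000061762, chromosome 6), the substance P precursor, had 634, 668 and 769 at 18 h and 152, 130.1 and 157 at 72 h, a log2 fold change of -2.22 ± 0.21 (edgeR adjusted p of 5.59e-05). Trpa1, the irritant channel of these cells, had 743, 987 and 1489 at 18 h, 215, 273 and 177 at 72 h and 661, 803 and 525 in controls, a log2 fold change of -2.26 ± 0.26 (edgeR adjusted p of 0.000162). Against control, Trpa1 had a log2 fold change of -1.58 ± 0.25 and did not pass (edgeR adjusted p of 0.0594).

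The granule protein genes Chga (ENSMUSG00000021194, chromosome 12) and Chgb (ENSMUSG00000027350, chromosome 2), markers of enteroendocrine cells, had log2 fold changes of -1.74 ± 0.17 and -1.78 ± 0.16 (edgeR adjusted p of 5.93e-05 and 3.76e-05). Chgb had 3807, 3889.6 and 5867 normalised counts at 18 h and 1323, 1460.4 and 1135 at 72 h, with no overlap. Hormone genes of other subtypes were called too: Sst (somatostatin) had 1582, 2186 and 3692 at 18 h, 476, 549 and 428 at 72 h and 1140.0, 1112 and 796 in controls, with a log2 fold change of -2.35 ± 0.28 (edgeR adjusted p of 0.000782). Ghrl, the ghrelin gene, had -1.50 ± 0.23 (edgeR adjusted p of 0.00123), and Gcg, the gene of the GLP-1 precursor, was called lower as well. Gip, the incretin of the proximal intestine, had -1.50 ± 0.30 (edgeR adjusted p of 0.0144), a call lost without 18h-αGal replicate 2 or 3 or 72h-αGal replicate 1. Cck was not called, with a log2 fold change of -1.70 ± 0.56 (edgeR adjusted p of 0.121) and 18 h mice that had 1898, 2366 and 4409.8 normalised counts. These hormone genes are given to cover the subtypes and were picked with their values in view.

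Of the transcription factors that specify the lineage, those called lower are given here and were picked with their values in view. Neurod1 (ENSMUSG00000034701, chromosome 2) had 878, 1149.8 and 1221 normalised counts at 18 h, 356, 353 and 379.7 at 72 h and 882, 887 and 739 in controls, a log2 fold change of -1.57 ± 0.16 (edgeR adjusted p of 7.76e-05). The 72 h mice of Neurod1 were nearly equal, and all were below the other 6 mice. Nkx2-2, Isl1, Rfx6, Fev and Lmx1a were also called lower, from -0.99 for Nkx2-2 to -2.43 for Lmx1a. The call of Nkx2-2 was lost without any 18h-αGal replicate or 72h-αGal replicate 1 or 2, and that of Fev without 18h-αGal replicate 2 or 72h-αGal replicate 1 or 3. Among secretory genes outside the lineage list, Reg4, which enteroendocrine and goblet-like cells express, had 3327, 4980.1 and 6123 at 18 h, 1555, 1742 and 2005 at 72 h and 3590.3, 3763 and 3495 in controls, a log2 fold change of -1.43 ± 0.18 (edgeR adjusted p of 0.000378).

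Tuft cells are the chemosensory cells of the epithelium. Of 29 genes, 6 were called lower and 0 higher, against 6.04% and 4.18% of all genes, with a median of -0.72, and 14 were lower and 1 higher at an unadjusted p under 0.05. DESeq2 and limma-voom called 10 and 7 lower. Against control the median of the tuft genes was -0.01. The taste channel gene Trpm5 had 1622, 2581 and 2994 normalised counts at 18 h, 787, 1037 and 1334 at 72 h and 1476, 1521 and 1105 in controls, a log2 fold change of -1.17 ± 0.24 (edgeR adjusted p of 0.0109), while Dclk1 and Alox5 were not called, at -0.88 ± 0.37 and -0.71 ± 0.27. The count of 6 was 1 without 18h-αGal replicate 2, where the call of Trpm5 was lost, and 2 without 18h-αGal replicate 3 or 72h-αGal replicates 1 or 2.

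Paneth and goblet products gave almost no calls. Of 32 Paneth genes, 0 were called by edgeR, DESeq2 or limma-voom, and 0 were higher and 1 lower at an unadjusted p under 0.05. Without 18h-αGal replicate 1, 1 Paneth gene was called lower. The lysozyme gene Lyz1 varied widely within groups, with 19915, 43909.8 and 22116 normalised counts at 18 h and 21968, 16341 and 38060.4 at 72 h, so that the groups overlapped. Of 25 goblet genes, 1 was called lower (Retnlb). Retnlb, an antimicrobial product of goblet cells, had 175, 113 and 91.1 normalised counts at 18 h, 2.32, 0 and 9.57 at 72 h and 1.17, 34.2 and 0 in controls, a log2 fold change of -4.84 ± 1.31 (edgeR adjusted p of 0.0447). That call was lost without any one of the 6 treated libraries, and 6 goblet genes were called higher without 18h-αGal replicate 1. The mucin gene Muc2 varied as widely, with 111732, 46096 and 39514 normalised counts at 18 h and 70759, 117495 and 59629 at 72 h.

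Most stem cell genes had a fold change above 0 at 72 h. Of 30 tested, 28 did, 7 were called higher and 0 lower, and the median was 0.71. At an unadjusted p under 0.05, 16 were higher and 1 lower. Called were Axin2, Rnf43 and Sp5, direct targets of WNT signalling, with Ephb2, Prom1, Gkn3 and Clca3b. Rnf43 (ENSMUSG00000034177, chromosome 11), which removes WNT receptors from the cell surface, had 1614, 1449.8 and 1326 normalised counts at 18 h, 3406, 3128 and 3900.2 at 72 h and 3231, 3423 and 2249 in controls, a log2 fold change of 1.26 ± 0.16 (edgeR adjusted p of 0.0003). Every 72 h mouse was above every 18 h mouse, and control replicate 3 lay between the groups. Sp5 had 154, 52.1 and 102 at 18 h and 254, 324 and 464 at 72 h, a log2 fold change of 1.76 ± 0.37 (edgeR adjusted p of 0.00864).

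Gkn3, a gastrokine of crypt base cells, spanned 35.3, 17.97 and 5.52 normalised counts at 18 h and 144, 229 and 419 at 72 h, a log2 fold change of 3.65 ± 0.71 (edgeR adjusted p of 0.0123) that was not called without 18h-αGal replicate 2 or by limma-voom. Lgr5, the defining stem cell receptor, was not called. It had 1564, 858 and 411 normalised counts at 18 h, 2007, 1931 and 3154 at 72 h and 2424, 3241 and 932 in controls, a log2 fold change of 1.32 ± 0.62 (edgeR adjusted p of 0.263). The groups did not overlap for Lgr5, yet the mice at 18 h differed from each other by more than the gap to the 72 h group. The count of 7 was 4 without 18h-αGal replicate 2, 72h-αGal replicate 1 or 72h-αGal replicate 3, and DESeq2 called 12 higher and 1 lower. Of 50 genes of DNA replication 2 were called lower (Rrm2 and E2f2), and of 59 genes of mitosis 3 were called lower (Ccna2, Bub3 and Spc24), shares at or below the 6.04% of all genes. At an unadjusted p under 0.05, 12 mitosis genes were lower and 0 higher, against 12.8% and 11.4% of all genes. For replication, 3 were lower and 1 higher. Against control, 56 mitosis genes were above 0 and 3 below, 0 were called and 9 had an unadjusted p under 0.05 (5.94% of all genes). The mitosis calls ranged from 0 to 7 when a library was left out, with 0 without 18h-αGal replicate 1 or 2 or any 72h-αGal replicate, 1 without control replicate 1, 6 without control replicate 3 and 7 without 18h-αGal replicate 3.

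**Figure D4:**
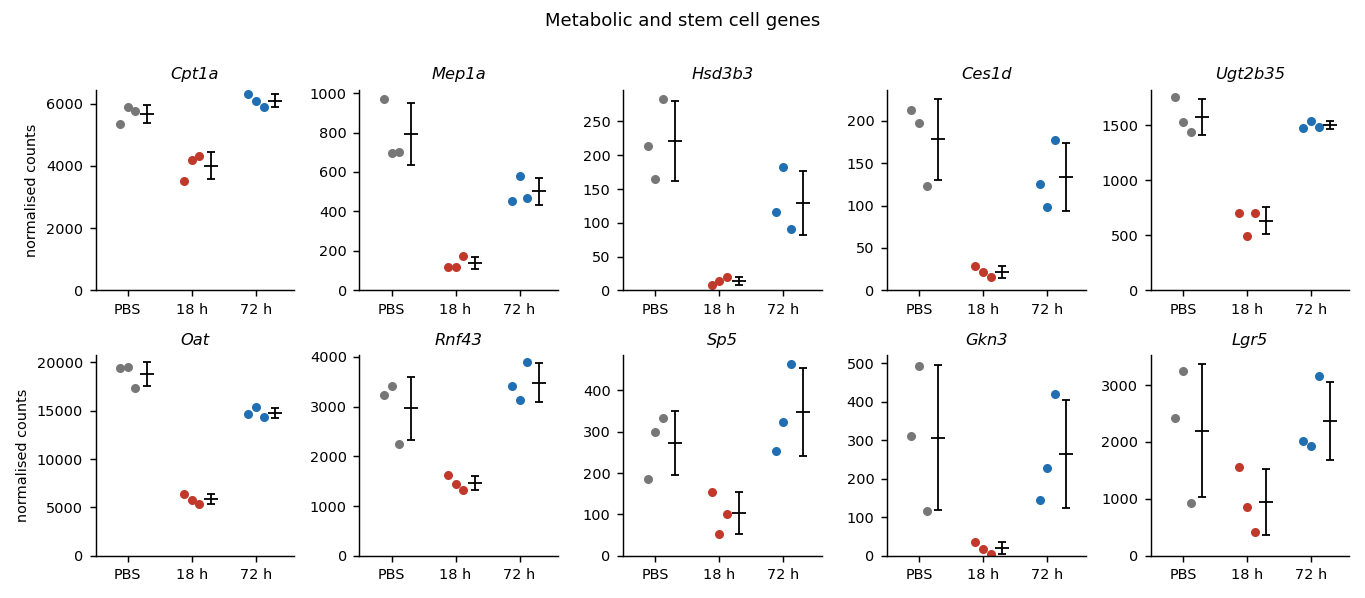
Normalised counts (y axis, linear from 0) of metabolic and stem cell genes in each control (PBS), 18 h and 72 h mouse. Points are mice, and the bar is the mean and SD of 3. The 18 h mice lie below all 72 h mice in each panel and below all controls except 1 for Lgr5, and the 72 h mice of Oat lie between the 18 h mice and the controls.

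Of 37 genes of fatty acid oxidation and ketogenesis, 4 were called higher and 0 lower, against 4.18% and 6.04% of all genes. Among the 4 were Cpt1a, Acaa2 and Acot1. The list as a whole was evenly split, with 19 genes above 0, 18 below and a median of 0.006. Without control replicate 3 or without 18h-αGal replicate 3, 1 gene of the list was called lower. Against control, 0 were called and the median was -0.26, and the 72 h mean lay below all 3 controls for 20 and above them for 2. Cpt1a, the gate of fatty acids into mitochondria, had 3515, 4200.4 and 4313 at 18 h and 6297, 6079.6 and 5887 at 72 h, a log2 fold change of 0.61 ± 0.11 (edgeR adjusted p of 0.00274). Mycn, a transcription factor, and Adgrf1, an adhesion receptor, were among the 10 largest rises, with log2 fold changes of 2.85 ± 0.43 and 3.43 ± 0.37 (edgeR adjusted p of 0.00123 and 9.45e-05). Edn1, the gene of the vasoconstrictor peptide endothelin 1, Paqr5, a membrane progesterone receptor gene, and Zc3h6, a zinc finger gene, had log2 fold changes of 2.44 ± 0.36, 2.33 ± 0.39 and 2.69 ± 0.31 (edgeR adjusted p of 0.00143, 0.00214 and 0.000141). Edn1 had 131, 73.7 and 52.4 normalised counts at 18 h, 503, 343 and 569 at 72 h and 403, 706 and 354 in controls, so that its 18 h mice lay below all 6 others.

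Enzymes that handle steroids and foreign compounds were tested as a list of 89 genes. Of these, 17 were called higher and 4 lower, against 4.18% and 6.04% of all genes, and 68 were not called, with a median of 0.43 at 72 h against 18 h and of -0.43 against control, where 0 were called by edgeR and 18 had an unadjusted p under 0.05 (5.94% of all genes), while DESeq2 called 0 higher and 2 lower. Hsd3b3 (ENSMUSG00000062410, chromosome 3), a steroid dehydrogenase, had 7.57, 14.4 and 19.3 normalised counts at 18 h, 116, 183 and 90.5 at 72 h and 213, 165 and 283 in controls, a log2 fold change of 3.29 ± 0.43 (edgeR adjusted p of 0.000396). Only 1 of the 3 mice at 72 h reached the range of the controls for Hsd3b3. Ces1d, a carboxylesterase, had 29.00, 21.6 and 15.2 at 18 h and 125, 98.8 and 177 at 72 h, a log2 fold change of 2.58 ± 0.39 (edgeR adjusted p of 0.00123). Ugt2b35, a glucuronosyltransferase, reached 1471, 1537 and 1483 at 72 h from 704, 489.6 and 699.5 at 18 h, a log2 fold change of 1.25 ± 0.15 (edgeR adjusted p of 0.000257). Its 72 h mice were nearly equal and lay within the range of the controls.

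Cyp2c55, a cytochrome P450 gene, had a log2 fold change of 2.94 ± 0.71 (edgeR adjusted p of 0.039), and its call was lost in 9 of 15 other fits, among them those without control replicate 1, without any 18h-αGal replicate and without 72h-αGal replicate 1 or 2. The count of 17 was 10 without 18h-αGal replicate 1 or 2 or 72h-αGal replicate 1, and 11 without 72h-αGal replicate 2. The 4 called lower were Cyp4b1, Sult2b1, Gstt1 and Hnf4g, a count of 2 without control replicate 1, 18h-αGal replicate 1 or 2 or 72h-αGal replicate 2, and 1 without any other treated library. Brush border genes, the products of mature enterocytes, numbered 43, of which 2 were called higher (Mep1a and Slc1a1) and 1 lower (Slc39a4). These shares were near or below the 4.18% and 6.04% of all genes, although 34 genes were below 0 with a median of -0.59. At an unadjusted p under 0.05, 4 were higher and 11 lower, against 11.4% and 12.8% of all genes. Against control, 0 were called, the median was -0.63 and 42 were below 0. The 72 h mean lay below all 3 controls for 18 and inside their range for 25. Mep1a, a meprin protease of the brush border, had 120.4, 120.4 and 174 normalised counts at 18 h, 453, 582 and 469 at 72 h and 973, 698 and 704 in controls, a log2 fold change of 1.88 ± 0.22 (edgeR adjusted p of 0.000151). The 72 h mice overlapped neither group for Mep1a. The lower count of brush border genes was 9 without control replicate 3, 3 without control replicate 2, 2 without 18h-αGal replicate 1 and 0 without control replicate 1, 18h-αGal replicate 2 or 3 or 72h-αGal replicate 1 or 3, and the higher count was 1 without 18h-αGal replicate 1 or 2 or any 72h-αGal replicate.

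Of 38 genes that absorb and package dietary fat, 30 were below 0, with a median of -0.40. Of these 38, Cd36 and Lpin1 were called higher and Gpat3, Plin3 and Scarb1 lower, 5 in all where 10.2% of all genes were called. Against control, 0 were called and the median was -0.54, and the 72 h mean lay below all 3 controls for 19 and above them for 1. Apoa4, an apolipoprotein of chylomicrons, was not called, with 1216, 655 and 1195 normalised counts at 18 h and 900.0, 1459 and 385 at 72 h and a log2 fold change of -0.16 ± 0.61 (edgeR adjusted p of 0.916). The counts in this list ranged from 0 to 3 higher and from 1 to 6 lower when a library was left out, with 0 higher without 18h-αGal replicate 1 or 2 or 72h-αGal replicate 2, 1 higher without 72h-αGal replicate 1, 1 lower without control replicate 1, 18h-αGal replicate 2 or 3, or 72h-αGal replicate 1 or 3, and 6 lower without control replicate 3. Of 12 genes of bile acid transport, Abcc3 was called higher and Slc51b lower, and both calls were lost without 18h-αGal replicate 2 or any 72h-αGal replicate.

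Genes of the circadian clock also differed between the time points. Of 21 tested, 6 were called higher (Per1, Per3, Nr1d1, Nr1d2, Dbp and Tef) and 0 lower, against 4.18% and 6.04% of all genes. In the core loop, the activators BMAL1 and CLOCK (or NPAS2) drive the Per, Nr1d, Dbp and Tef genes, whose products act in opposite phase to Bmal1. Nr1d1 (ENSMUSG00000020889, chromosome 11), the repressor of Bmal1, had 2411, 2857 and 3731 normalised counts at 18 h, 5886, 6088 and 6164 at 72 h and 5925, 4872 and 4479 in controls, a log2 fold change of 1.02 ± 0.15 (edgeR adjusted p of 0.000938). Per3 had 148, 169 and 230.4 at 18 h, 500.4, 491 and 443 at 72 h and 349, 248 and 240.1 in controls, a log2 fold change of 1.41 ± 0.23 (edgeR adjusted p of 0.00202). Tef had 309, 212 and 349 at 18 h, 665, 615 and 612 at 72 h and 315, 339.8 and 402 in controls, a log2 fold change of 1.13 ± 0.20 (edgeR adjusted p of 0.00337). For Per3 and Tef the 72 h mice were above all 6 mice of both other groups.

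Nr1d2 and Dbp had log2 fold changes of 1.31 ± 0.20 and 1.25 ± 0.29 (edgeR adjusted p of 0.00114 and 0.0144), and Per1 had 0.69 ± 0.18 (edgeR adjusted p of 0.0223). The call of Per1 was lost without 18h-αGal replicate 3 or 72h-αGal replicate 1 or 3, and that of Dbp without 18h-αGal replicate 1 or 72h-αGal replicate 1 or 2. On the other arm, Bmal1 had 1518, 1232 and 1544 normalised counts at 18 h and 901, 1246 and 768 at 72 h, a log2 fold change of -0.55 ± 0.19 that was not called (edgeR adjusted p of 0.078). Npas2, of the same arm, had -0.48 ± 0.18 and was not called (edgeR adjusted p of 0.116). Cry1, which lies outside that arm, had -0.47 ± 0.29 and was not called (edgeR adjusted p of 0.351). Against the controls labelled 18 h, 0 clock genes were called by edgeR or DESeq2 and 7 of 21 had an unadjusted p under 0.05 (5.94% of all genes). At 72 h against 18 h, 1 clock gene was called lower without control replicate 3 or without 72h-αGal replicate 2. Npas2 had no overlap between the groups, and Bmal1 had 1 mouse that overlapped. Clock, Cry2, Per2, Hlf, Nfil3, Ciart, Bhlhe40, Rora, Usp2, Csnk1d and Csnk1e were not called. The hour of day at which mice were killed was not given in the sources used here, and its part in these results was not tested.

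**Figure D5:**
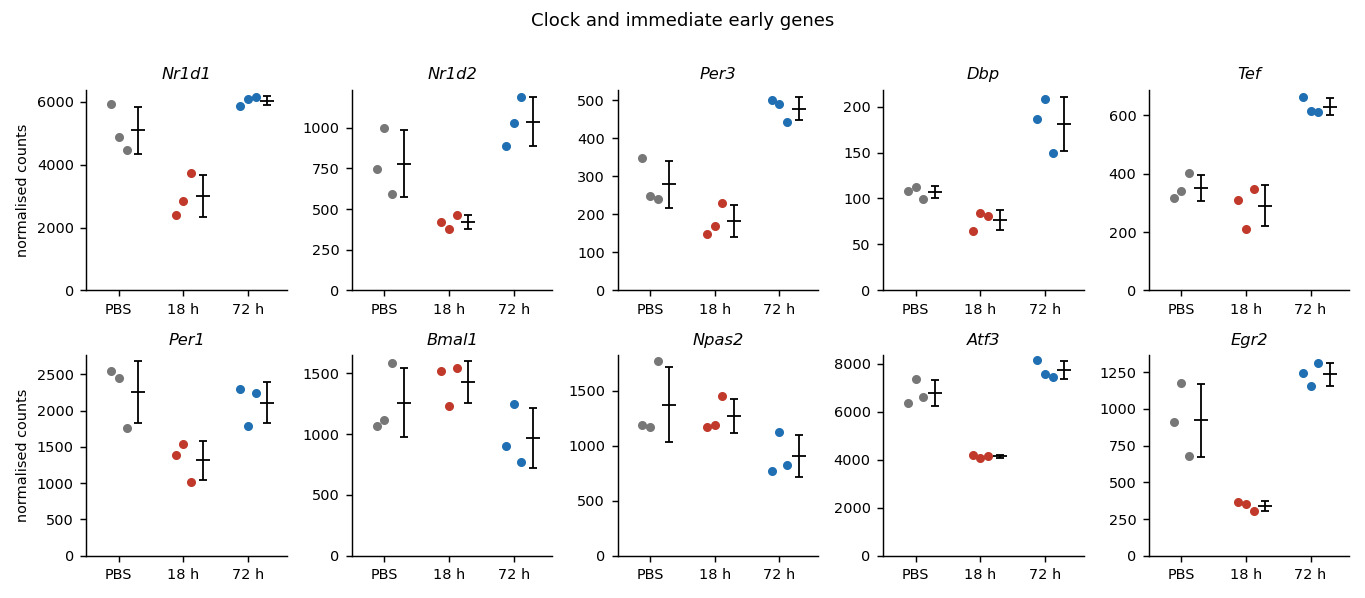
Normalised counts (y axis, linear from 0) of 8 clock genes and the immediate early genes Atf3 and Egr2 in each control (PBS), 18 h and 72 h mouse. Points are mice, and the bar is the mean and SD of 3. The 72 h mice lie above the 18 h mice for the first 6 genes, below them for Npas2 and on average for Bmal1, with overlap of 1 mouse, and above them for Atf3 and Egr2.

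Immediate early genes, which respond within minutes to signals and to tissue dissociation, and heat shock genes formed a list of 28. Of these, 12 were called higher (Fos, Fosb, Jun, Junb, Atf3, Egr1, Egr2, Ier2, Dusp1, Nr4a1, Btg2 and Socs3) and 4 lower (Hsph1, Hspa8, Hspe1 and Hspd1), and 12 were not called, among them Fosl1, Jund, Ier3, Hspa1a, Hspa1b and Dnajb1. Atf3 (ENSMUSG00000026628, chromosome 1) had 4196, 4076 and 4159 normalised counts at 18 h, 8146, 7586 and 7460.4 at 72 h and 6362, 7383 and 6599.6 in controls, a log2 fold change of 0.91 ± 0.10 (edgeR adjusted p of 0.000132). The gap of Atf3 between the groups was wider than the spread within either. Egr2 had 368, 352 and 302 at 18 h and 1241, 1154 and 1309.9 at 72 h, a log2 fold change of 1.86 ± 0.19 (edgeR adjusted p of 6.88e-05). Hspe1, the mitochondrial co-chaperone, went from 2277, 3176 and 2793 to 1139, 1062 and 1050.1, a log2 fold change of -1.33 ± 0.16 (edgeR adjusted p of 0.000178), and its exons overlap those of Hspd1 on the opposite strand. Since every library passed through digestion and sorting, the part of that handling in these differences was not tested.

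A list of 12 transcripts held genes that the study itself measured by quantitative PCR, with Lgr5 and Ifngr1 added. Of these 12, 5 were called lower, among them Tap1, Cxcl9, Ly6a and Stat2. Stat2 had 2699, 3133 and 3492 normalised counts at 18 h, 802, 913 and 567 at 72 h and 597, 599.9 and 1747 in controls, a log2 fold change of -2.02 ± 0.44 (edgeR adjusted p of 0.028). The call of Stat2 was lost without any one of the 6 treated libraries. Il7 and Cd1d1, the latter the gene of the molecule that presents αGalCer, were not called, at -0.05 ± 0.50 and 0.26 ± 0.64, and Cd1d1 had between 13.5 and 33.1 normalised counts in the 6 treated mice. The count of 5 was 3 without 18h-αGal replicate 2 or 72h-αGal replicate 1 and 2 without 72h-αGal replicate 3.

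Markers of cells outside the epithelial gate were low at both times. Myeloid markers summed to between 29.8 and 45.7 CPM at 18 h and between 44.1 and 62.8 at 72 h, endothelial markers to at most 44.3, and B cell markers to at most 6.04 in any of the 6 libraries. Tyrobp, S100a8 and Csf3r of the myeloid list, Kdr and Emcn of the endothelial list and Dcn of the stromal list had 0 counts in all 6 libraries. Stromal markers summed to between 32.4 and 35.1 CPM at 18 h and between 11.8 and 15.2 at 72 h. Nearly all of that difference was Vim, and without it the sums were 3.80 to 4.31 and 4.85 to 7.49 CPM. Vim, a filament gene, had 556, 583 and 646 normalised counts at 18 h, 146, 134 and 141 at 72 h and 453, 284 and 314 in controls, a log2 fold change of -2.08 ± 0.22 (edgeR adjusted p of 7.99e-05). Of 13 genes of the regenerative, fetal-like epithelium, Ccn1 was called higher and Ly6a, Ly6e and Krt7 lower. The call of Krt7 was lost without any one of the 6 treated libraries and that of Ly6a without 72h-αGal replicate 1.

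Called genes also differed in class and length. Of 13739 protein-coding genes, 655 were called higher and 1101 lower, whereas of 2161 lncRNA genes 69 were called higher and 18 lower, and of 1205 genes of the annotation class TEC, transcripts awaiting experimental proof, 47 were higher and 1 lower. lncRNA took between 1.46% and 1.58% of counts at 18 h, between 1.94% and 2.28% at 72 h and between 1.62% and 2.00% in controls. The median genomic span of protein-coding genes was 37.6 kb among those called higher, 21.6 kb among those called lower and 25.3 kb among all tested. When protein-coding genes were split into 4 equal groups by span, 3.0% of the shortest were called higher and 8.50% lower, and 7.37% and 5.09% of the longest. The part of RNA quality or library preparation in this relation was not tested.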

How the data were processed

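Bulk RNA-seq was made by the authors from sorted crypt IECs with ribosomal RNA depletion and a strand-specific kit. The deposited table held raw counts per gene, from HISAT2 alignment and featureCounts of Subread per the labels' notes, and a second deposited table held the same counts divided by DESeq2 size factors (unit signal, called normalised counts). The genome build was named differently in the notes (GRCm38) and in the study's methods, so only chromosomes are printed for genes, and the strand setting and annotation release were not given in the sources used here.

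The raw counts of all 9 libraries were fitted together in edgeR 4.0.16 (filterByExpr, TMM, robust quasi-likelihood fit) with R 4.3.3, and the contrast of 72h-αGal with 18h-αGal was adjusted over 18933 genes. DESeq2 1.42.0, limma-voom (limma 3.58.1), other scaling, no filter, 6 libraries, a replicate block and leaving out each library were alternatives. The scripts were tested on simulated data with 200 genes changed at 72 h. Of these, 154, 168 and 147 were recovered by edgeR, DESeq2 and limma-voom, with 9, 49 and 11 false calls. Symbols came from GENCODE annotation by gene ID for 28480 of 29288 genes. Promoters came from RefSeq GRCm38.p6.

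Members and gene lists were chosen with earlier results of these data known. The text draws on a rule that names the 10 largest changes in each direction among called genes with a mean of at least 100 counts and no overlap, up to 4 called genes of each list by p, and all clock and qPCR genes. Genes outside the rule, such as the hormone and transcription factor genes of enteroendocrine cells, Gvin1, Jak2, Socs3, H2-Ab1, Nampt, Nudt5, Oat, Casp4, Bcl2l11, Muc2, Ppp1r15a and Vim, were named after their values were seen. Members of near-identical families (Gbp, Tgtp, C4, H2, Hsd3b, Ugt2b, Cyp2c, Ces1 and Lyz genes) may share reads, so their single values are uncertain. Each library was a separate mouse, and replicates differed by more than counting error. The SE after ± was taken from the quasi-likelihood F statistic, which includes the spread between mice. Some genes that the rule names are not reported here.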

Additional observations from a re-analysis of the deposited data

How the results depend on the processing

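The count of genes called at 72 h against 18 h was 1936. It was 2449 with DESeq2, 2341 with limma-voom, 1903 with DESeq2-style size factors in edgeR, 2130 without the filter on low counts and 2341 in a fit of the 6 treated libraries alone. Requiring a 2-fold change as well left 682, of which 367 were higher and 315 lower. Leaving out each of the 9 libraries in turn gave from 831 to 2593 calls, from 336 to 1070 of them higher and from 495 to 1523 lower. The count was 940 without 18h-αGal replicate 2, 1108 without 72h-αGal replicate 1, 1194 without 72h-αGal replicate 2 and 831 without 72h-αGal replicate 3. Against control, the 5 calls became 30 with DESeq2 and 13 without the filter, and from 0 to 20 when a library was left out (0 without control replicate 1, 72h-αGal replicate 1 or 3, and 20 without control replicate 3).

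With the replicate number as a block, 1371 genes were called at 72 h against 18 h (556 higher and 815 lower) and 1 at 72 h against control. Deviations from the group means of same-numbered 18 h and 72 h mice had correlations of -0.008, -0.057 and -0.078. With controls included, same-numbered pairs ran from -0.15 to 0.11. Whether same-numbered mice shared a batch was not tested. Under the block, the log2 fold changes of Il7 and Lyz1, neither of them called, turned to 0.0456 and 0.0291.

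Of 121 called genes named by the rule and reported, 86 kept their call in all 15 alternative fits, 35 lost it in at least 1 and 0 changed sign. Genes that were not called and changed sign when a library was left out ranged from -0.67 to 0.21 for Apoa4, from -0.0447 to 0.49 for Cd1d1, from -0.13 to 0.41 for Ciart, from -0.30 to 0.12 for Cry2, from -0.57 to 0.26 for Defa39, from -0.32 to 0.21 for Il7, from -0.58 to 0.29 for Lyz1 and from -0.0913 to 0.13 for Rpsa. The cause was not tested for any of these. The median log2 fold change over all genes stayed between 0.02 and 0.07 under every scaling.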
